A study of Mus musculus with 16 samples.

Results

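The 4 genes described here were followed across 16 libraries of sorted mouse spleen cells: *Mt1* and *Mt2*, which encode the metallothioneins of most tissues, *Mtf1*, which encodes the metal-sensing transcription factor MTF-1, and *Slc30a1*, which encodes the zinc exporter ZnT1. They were picked by name, as 4 of the 24532 genes in the deposited table, and the choice used measured values, since *Mt1* is a gene the study names for its P-IV cells. The study also lists *Mt1* among the genes specific to P-IV in its single-cell data, which were not used here. From the libraries used here it named genes that were at least 2-fold higher in P-IV than in each population it compared. Differences between P-IV and the other groups are therefore described here without a test. Metallothioneins are small cysteine-rich proteins that bind zinc and copper and react with oxidants. When free zinc rises, MTF-1 binds metal response elements in the promoters of *Mt1*, *Mt2* and *Slc30a1* and raises their transcription, so that zinc is bound or pumped out of the cytosol. Glucocorticoids and cytokines can also raise metallothionein transcripts, and in macrophages and dendritic cells (DCs) zinc is redistributed when the cells are activated.

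All mice were C57BL/6 animals aged 12 weeks. Treated mice were given GM-CSF (granulocyte-macrophage colony-stimulating factor), which drives myeloid cells to grow and differentiate, once daily for 3 days, and control mice were untreated. The CD11b+CD115-high gate of treated mice gave P-IV (Ly6C- MHC II+ CD301b+), P-III (Ly6C- MHC II+ CD301b-) and P-I (Ly6C+, the gate of classical monocytes). The CD11c-high MHC II+ gate gave DC-Xs (XCR1-33D1-, treated mice only), cDC2s (XCR1-33D1+) and cDC1s (XCR1+33D1-), the last 2 from treated and from control mice, with 2 libraries for each of the 8 groups. The study reports that most DC-Xs were P-IV cells and a smaller share P-III cells, so these groups overlap in cell type. The libraries hold sorted populations, in which fewer cells of a type and less RNA per cell cannot be told apart.

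Most of the markers read fitted the labels. *Mgl2*, which encodes CD301b, stood at 773 and 803 FPKM (fragments scaled to transcript length and to the mapped fragments of the library) in P-IV, against 50.4 and 64.1 FPKM in P-III, and at 402 and 435 FPKM in DC-Xs. *Ccr2*, read as a marker of P-I, did not set it apart, with 247 and 269 FPKM in P-I, 262 and 262 FPKM in P-III and 226 and 250 FPKM in P-IV. *Sirpa*, read as a marker of cDC2s, was also high in P-I (315 and 305 FPKM, against 268 and 313 FPKM in GM-CSF cDC2s). Genes of a neutrophil list summed to 134 and 223 FPKM over 6 markers in P-I, against 0.234 and 0.175 FPKM in P-III, where 5 of the 6 were at 0. The 6 include *S100a8* and *S100a9* and were read only as a sum, which does not show whether P-I held neutrophils. Red pulp macrophage genes summed to 133 and 68.7 FPKM over 5 markers in control cDC2s, where none was at 0, and to between 17.0 and 75.3 FPKM in the other 14 libraries. B cell genes summed to 62.1 and 22.6 FPKM over 4 markers in P-I, 47.1 and 47.4 FPKM in P-III and 33.4 and 38.7 FPKM in P-IV. They summed to 4.21 and 10.6 FPKM in DC-Xs and to between 13.8 and 49.9 FPKM in the cDC libraries. The part of these cell types in the values below was not tested. The descriptions of the samples also carry a number whose meaning is not stated. It ran from 8 to 12 in replicate 1 of the 5 groups of the DC gate, from 41 to 100 in their replicate 2, and from 115 to 123 in the CD115-high populations, so any difference in handling between these runs of numbers cannot be told apart from the gate. Low values moved in steps of whole fragments in 10 libraries, which placed their depth between about 25000000 and 46340000 fragments. In the other 6 the depth is unknown.

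*Mt2* and *Mt1* lie side by side on chromosome 8 (GRCm38), *Mt2* at 94172618-94173567 and *Mt1* at 94178883-94180327, both on the plus strand and 5315 bases apart. Each has 3 exons. The transcript is 549 nt long for *Mt1* and 511 nt for *Mt2*, and the coding sequences, 183 nt in both without the stop codon, are identical at 79.2% of positions. The longest stretch the transcripts share is 20 bases. *Mtf1* lies on chromosome 4 at 124802549-124849800, with 11 exons and a transcript of 7631 nt. *Slc30a1* lies on chromosome 1 at 191906697-191913248, with 2 exons and a transcript of 5244 nt. Only 2.65% of the genes tested have a shorter transcript than *Mt1*, whereas 96.0% have a shorter one than *Mtf1*.

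The promoters are shown because they hold the letters that MTF-1 is known to bind. Each window runs from 250 bases before to 50 bases after the start site that RefSeq gives (GRCm38.p6, plus strand), chr8:94178839-94179138 for *Mt1* and chr8:94172368-94172667 for *Mt2*. Capitals mark matches to the core of the metal response element, TGCACNC or TGCGCNC, on either strand.
Mt1: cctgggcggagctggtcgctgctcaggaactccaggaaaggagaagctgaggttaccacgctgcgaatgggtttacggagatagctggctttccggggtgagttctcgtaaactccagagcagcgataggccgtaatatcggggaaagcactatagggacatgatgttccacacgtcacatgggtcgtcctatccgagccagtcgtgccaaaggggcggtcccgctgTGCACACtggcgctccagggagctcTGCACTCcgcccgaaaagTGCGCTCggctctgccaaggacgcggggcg
Mt2: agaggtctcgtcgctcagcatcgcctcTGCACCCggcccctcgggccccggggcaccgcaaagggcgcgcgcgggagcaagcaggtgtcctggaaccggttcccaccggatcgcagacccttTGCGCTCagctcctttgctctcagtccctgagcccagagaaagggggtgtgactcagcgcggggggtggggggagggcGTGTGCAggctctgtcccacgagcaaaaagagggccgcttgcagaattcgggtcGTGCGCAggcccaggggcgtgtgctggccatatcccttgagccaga
The *Mt1* window held 3 matches, starting 23 bases before and 2 and 20 bases after the start site, all on the plus strand. For *Mt1* this start site lies 206 bases inside the gene bounds given above, so the offsets hold for this start site and not for any other. Matches outside the windows were not searched for, so the counts are not totals for a promoter. The *Mt2* window held 4 matches, which began 223, 128 and 50 bases before and 4 bases after the start site. *Slc30a1* had 2 matches and *Mtf1* had 0. Of the 32851 promoters of the same length, 25.7% held at least 1 match, 7.11% at least 2, 1.97% at least 3 and 0.517% at least 4. The GAS letters that STAT5, a factor downstream of the GM-CSF receptor, can bind (TTCNNNGAA) were in none of the 4 windows and in 8.30% of all promoters. The core of the antioxidant response element (TGACNNNGC), the letters of NRF2, occurred once in *Mt2* and once in *Slc30a1*, and in 12.4% of all promoters. A match is a string of letters, not a measured binding site.

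*Mt1* was the abundant metallothionein in every library. Its level was 148 and 142 FPKM in P-IV (replicates 1 and 2), above all other libraries. In P-III it was 69.6 and 69.2 FPKM, and in P-I 29.2 and 59.7 FPKM. In the DC gate of treated mice it was 79.2 and 47.4 FPKM in DC-Xs, 74.4 and 28.0 FPKM in cDC2s and 34.7 and 15.0 FPKM in cDC1s. Control cDC2s gave 19.6 and 29.5 FPKM and control cDC1s 30.9 and 57.2 FPKM. The mean was 145 ± 4.09 FPKM in P-IV (SD, n = 2) and 69.4 ± 0.257 FPKM in P-III (SD, n = 2), the group next below it, so P-IV stood 2.09-fold higher. Against the remaining groups P-IV was 2.29-fold higher than DC-Xs, 2.83-fold higher than GM-CSF cDC2s, 3.26-fold higher than P-I, 3.29-fold higher than control cDC1s, 5.83-fold higher than GM-CSF cDC1s and 5.89-fold higher than control cDC2s. The study's 2-fold rule for naming *Mt1* fixed part of these margins in advance. No group overlapped P-IV. Below P-IV every neighbour in the order P-III, DC-Xs, GM-CSF cDC2s, P-I, control cDC1s, GM-CSF cDC1s and control cDC2s overlapped the next. In P-IV, 95.6% of the genes tested had a lower mean level than *Mt1*, against 72.4% in control cDC2s.

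The spread of *Mt1* between replicates differed from group to group. The higher library of P-IV exceeded the lower 1.04-fold, and that of P-III 1.01-fold. By contrast, the replicates of GM-CSF cDC2s differed 2.66-fold, those of GM-CSF cDC1s 2.31-fold and those of P-I 2.05-fold. The pattern was not that of *Mt1* alone. Replicates of *Mt2* differed 1.05-fold in P-IV and 6.03-fold in GM-CSF cDC2s, and those of *Slc30a1* 1.04-fold and 1.71-fold. Those of *Mtf1* differed 1.12-fold and 1.10-fold. The tests below pool the spread of a gene over all groups. The differences between P-IV, P-III and P-I fall within 1 run of the label numbers, while those between P-IV and the groups of the DC gate do not.

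**Figure D1:**
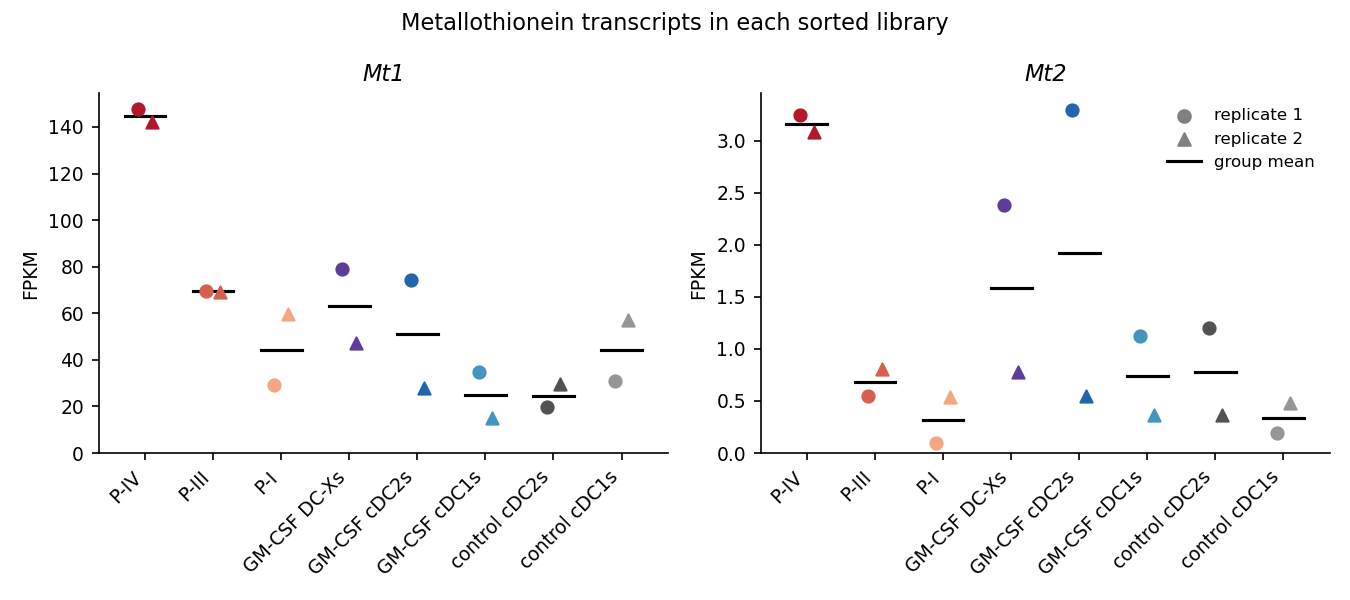
FPKM of *Mt1* (left) and *Mt2* (right) in the 16 libraries, by group, with circles for replicate 1, triangles for replicate 2 and a black line for the group mean. *Mt1* lies at 148 and 142 FPKM in P-IV and at 79.2 FPKM or less elsewhere, and the scale for *Mt2* ends just above its highest value, 3.29 FPKM.

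*Mt2* showed the same leading group at a far lower level. P-IV gave 3.24 and 3.08 FPKM, P-III 0.551 and 0.810 FPKM and P-I 0.0952 and 0.541 FPKM. In treated mice DC-Xs gave 2.39 and 0.780 FPKM, cDC2s 3.29 and 0.546 FPKM and cDC1s 1.12 and 0.367 FPKM. Control cDC2s gave 1.20 and 0.366 FPKM and control cDC1s 0.188 and 0.481 FPKM. The highest library of all was thus a GM-CSF cDC2 library and not P-IV, and GM-CSF cDC2s were the group that overlapped P-IV. The P-IV mean, 3.16 FPKM, was 1.65-fold that of GM-CSF cDC2s, 4.65-fold that of P-III and 9.94-fold that of P-I. These ratios rest on few fragments: where the depth could be placed, *Mt2* corresponded to about 1.40 to 60.2 fragments a library, against 326 to 2977 fragments for *Mt1*.

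*Mt1* exceeded *Mt2* in all 16 libraries, by 16.4-fold to 306-fold with a median of 56.0. In P-IV the ratio was 45.5 and 46.1, whereas in P-III it was 126 and 85.4. The remaining mouse metallothioneins, *Mt3* and *Mt4*, were listed at 0 in 15 and in 16 of the libraries, with 0.161 FPKM of *Mt3* in control cDC1s replicate 1.

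*Mtf1*, the regulator, was not highest in P-IV. It was 2.94 and 3.30 FPKM in P-IV, 3.25 and 3.39 FPKM in P-III and 2.94 and 2.91 FPKM in P-I. In treated mice it was 4.48 and 3.75 FPKM in DC-Xs, 5.23 and 4.76 FPKM in cDC2s and 3.64 and 4.09 FPKM in cDC1s. Control cDC2s gave 2.99 and 4.59 FPKM and control cDC1s 1.92 and 1.80 FPKM. GM-CSF cDC2s lay above and control cDC1s below every library of the other groups, and P-IV stood sixth of the 8 group means. The P-IV mean was 0.939 times that of P-III and 0.625 times that of GM-CSF cDC2s.

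*Slc30a1*, the exporter, was highest in DC-Xs. DC-Xs gave 6.54 and 7.53 FPKM, and P-IV came second with 4.36 and 4.56 FPKM, below both DC-X libraries. P-III gave 4.14 and 3.72 FPKM and P-I 2.99 and 4.25 FPKM. The DC-X libraries thus lay above both P-IV and P-III, the populations that the study says make up DC-Xs. The reason was not tested. In treated mice cDC2s gave 4.65 and 2.72 FPKM and cDC1s 2.88 and 3.08 FPKM, while control cDC2s gave 1.89 and 4.27 FPKM and control cDC1s 2.86 and 2.23 FPKM. From P-III to GM-CSF cDC1s in the order of means the groups overlapped. P-IV thus had 2.09-fold more *Mt1* than P-III, with 1.14-fold more *Slc30a1* and 0.939 times the *Mtf1*.

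**Figure D2:**
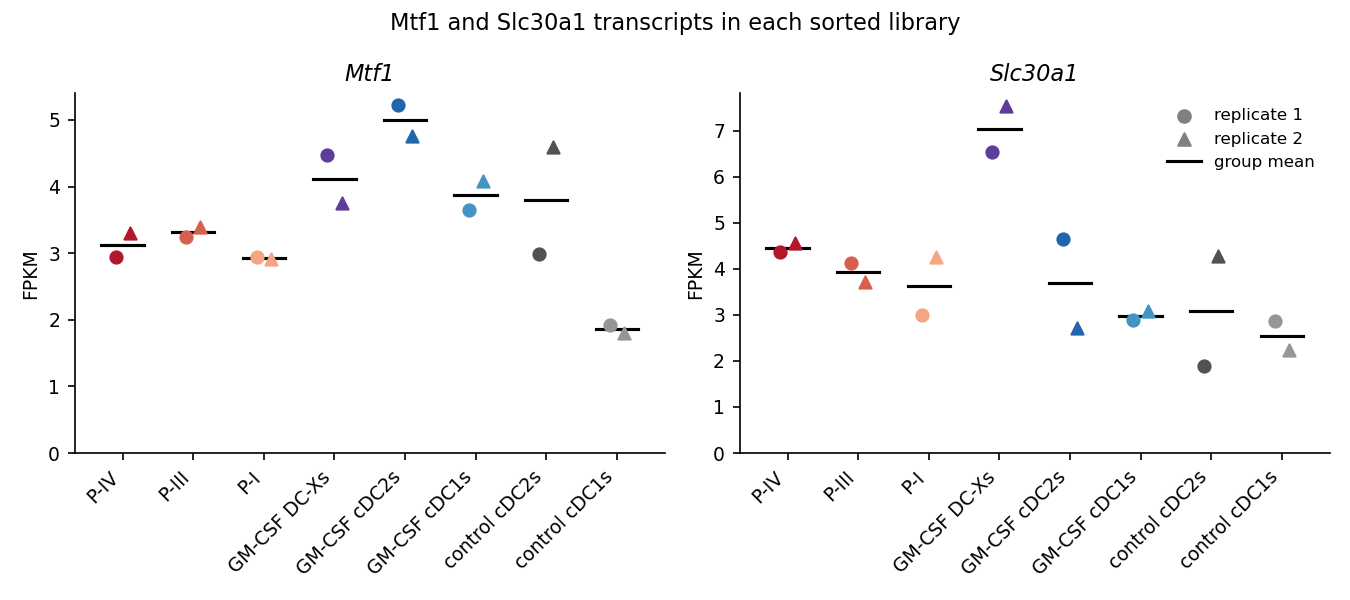
FPKM of *Mtf1* (left) and *Slc30a1* (right) in the 16 libraries, by group, with circles for replicate 1, triangles for replicate 2 and a black line for the group mean. *Mtf1* is lowest in control cDC1s (1.92 and 1.80 FPKM) and *Slc30a1* highest in DC-Xs (6.54 and 7.53 FPKM).

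Comparisons without the P-IV libraries were tested for all 11335 genes that reached 1 FPKM in at least 2 libraries, which all 4 genes did. Those with DC-Xs still hold cells of the P-IV type. limma was fitted to log2(FPKM + 1), a scale that understates changes of low genes, and a gene was called at an adjusted p under 0.05 and a change of at least 2-fold. The share of all genes tested that was called was 14.8% for GM-CSF against control cDC1s, 5.28% for GM-CSF against control cDC2s, 6.84% for the difference of these effects, 31.8% for control cDC1s against control cDC2s, 14.8% for GM-CSF cDC1s against GM-CSF cDC2s, 16.4% for DC-Xs against GM-CSF cDC1s, 14.7% for DC-Xs against GM-CSF cDC2s and 3.51% for P-III against P-I. Over these 8 comparisons, 1 of the 32 tests of the 4 genes was called.

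That call was *Slc30a1* in DC-Xs. The exporter averaged 7.03 ± 0.700 FPKM in DC-Xs and 2.98 ± 0.142 FPKM in GM-CSF cDC1s (SD, n = 2 each), a log2 difference of 1.01 (SE 0.30, limma adjusted p = 0.0257). The groups did not overlap. The difference lay at the edge of the 2-fold limit, and in the fits that left out 1 of the 4 libraries it was between 0.92 and 1.10 with adjusted p between 0.0697 and 0.119, so the call was lost whichever of them was left out. Against GM-CSF cDC2s, which averaged 3.69 ± 1.37 FPKM (SD, n = 2), DC-Xs were 0.81 higher on the log2 scale (95% interval 0.16 to 1.45, limma adjusted p = 0.0730). That difference was called when GM-CSF cDC2s replicate 1 was left out (1.11, adjusted p = 0.0446).

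*Mt1* did not pass the test in any comparison. In cDC1s of treated mice it averaged 24.9 ± 13.9 FPKM, against 44.0 ± 18.6 FPKM in control cDC1s (SD, n = 2 each), a log2 difference of -0.85 (95% interval -1.96 to 0.26, limma adjusted p = 0.241). In cDC2s of treated mice it averaged 51.2 ± 32.8 FPKM, against 24.6 ± 6.99 FPKM in control cDC2s (SD, n = 2 each), a log2 difference of 0.90 (95% interval -0.21 to 2.00, limma adjusted p = 0.345). The point estimates thus had opposite signs, and the difference of these effects, cDC1s minus cDC2s, was -1.75 (95% interval -3.31 to -0.18). Its p of 0.0316 became 0.139 after limma's adjustment over all genes tested. Within replicate 1 alone, *Mt1* was 34.7 FPKM in GM-CSF cDC1s and 30.9 FPKM in control cDC1s, and 74.4 FPKM in GM-CSF cDC2s and 19.6 FPKM in control cDC2s. Within replicate 2 it was 15.0 FPKM in GM-CSF cDC1s and 57.2 FPKM in control cDC1s, and 28.0 FPKM in GM-CSF cDC2s and 29.5 FPKM in control cDC2s. Libraries with the same replicate number are not known to be pairs.

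Transcript length moved with these comparisons. *Mt1* and *Mt2* belong to the shortest of 5 length classes, whose median log2 difference was -0.51 in GM-CSF against control cDC1s, against 0.35 for the longest class, to which *Mtf1* and *Slc30a1* belong. In GM-CSF against control cDC2s the medians were -0.00327 and -0.12 for the shortest and longest classes. With the length trend of each library removed, the *Mt1* difference in cDC1s was -0.07 and the difference of the effects -1.06. The part of length in the deposited values was not tested.

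DC-Xs had more *Mt1* than GM-CSF cDC1s in both libraries, 63.3 ± 22.5 FPKM against 24.9 ± 13.9 FPKM (SD, n = 2 each), but the test was not passed (log2 difference 1.38, 95% interval 0.28 to 2.49, limma adjusted p = 0.0690). The call was made with the length trend removed (1.89, adjusted p = 0.00782) and without GM-CSF cDC1s replicate 1 (1.96, adjusted p = 0.0383), and the lowest value, 0.80, came without GM-CSF cDC1s replicate 2. The shortest length class had a median of -0.36 here. DC-Xs and GM-CSF cDC2s overlapped in *Mt1*, with a log2 difference of 0.41 (95% interval -0.69 to 1.52). P-III and P-I did not overlap, but the log2 difference of 0.72 had an interval from -0.39 to 1.83 (limma adjusted p = 0.755).

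*Mt2* passed in 0 of the 8 comparisons with limma, where 0 of the 8 p-values were under 0.05 before adjustment. Its log2 differences lay between -0.60 in GM-CSF cDC1s against GM-CSF cDC2s and 0.57 in GM-CSF against control cDC2s. The interval in the last comparison, -0.40 to 1.55, still allows a change above 2-fold. With the length trend removed, *Mt2* was called in control cDC1s against control cDC2s (-1.20, adjusted p = 0.0439), against -0.39 without that step.

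*Mtf1* was higher in cDC1s of treated mice, at 3.87 ± 0.313 FPKM, than in control cDC1s, at 1.86 ± 0.0819 FPKM (SD, n = 2 each). The log2 difference of 0.77 (SE 0.21, limma adjusted p = 0.0202) passed the adjusted p but not the 2-fold limit. With a pseudocount of 0.1 it was 1.02 and was called. It was also lower in control cDC1s than in control cDC2s, at 3.79 ± 1.14 FPKM (SD, n = 2), by a log2 difference of -0.72 (SE 0.21, limma adjusted p = 0.0138), again short of the limit. Both differences shrank with the length trend removed, to 0.43 (adjusted p = 0.245) and -0.12 (adjusted p = 0.719). The longest length class had medians of 0.35 and -0.63 in these comparisons, and the part of length in the differences was not tested. In cDC2s the GM-CSF difference was 0.34 (95% interval -0.12 to 0.80), and the difference between the effects in cDC1s and cDC2s, 0.42, had an interval from -0.22 to 1.07.

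**Figure D3:**
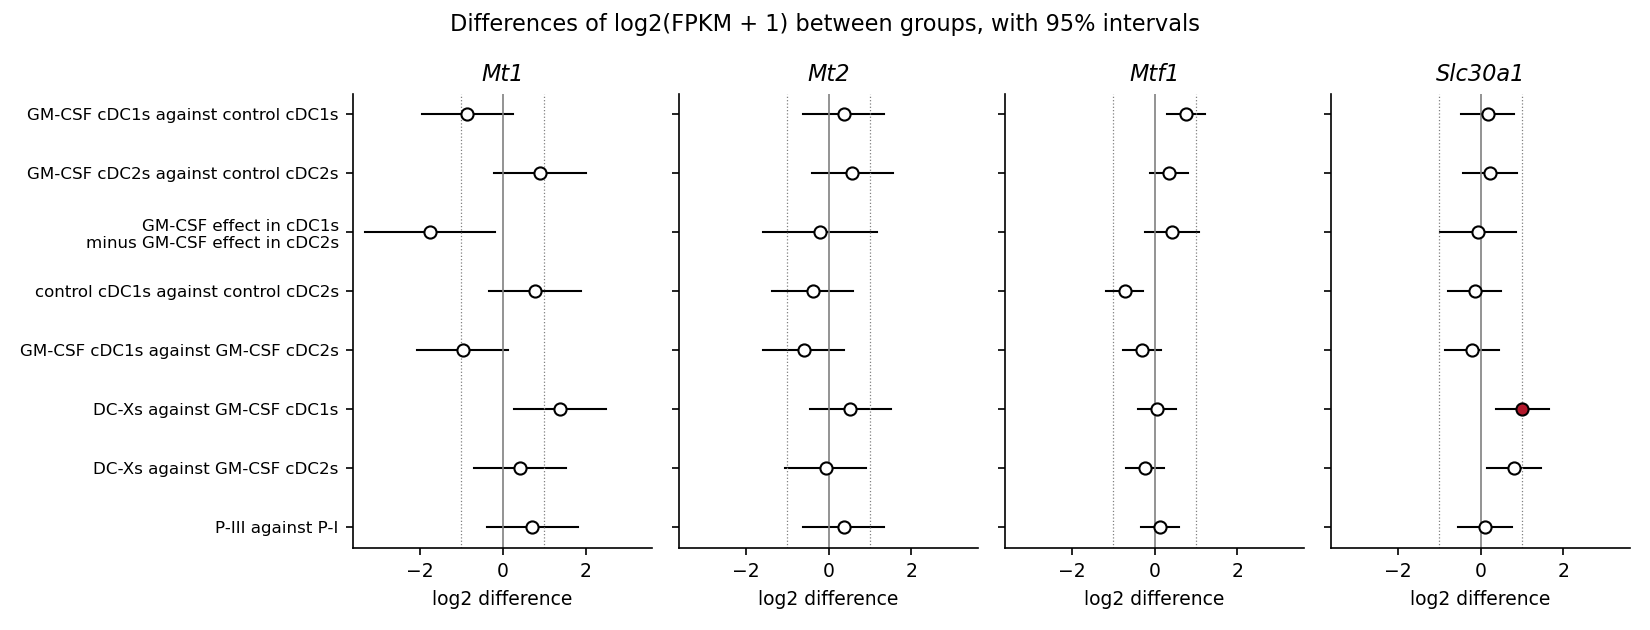
Difference of log2(FPKM + 1) for the 4 genes (columns) in the 8 tested comparisons (rows), with the first-named group on top of the difference and lines for 95% intervals. A filled point marks the 1 call, *Slc30a1* in DC-Xs against GM-CSF cDC1s at 1.01, and dotted lines stand at changes of 2-fold.

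The other zinc transporters were read as families. ZnT exporters (Slc30) move zinc out of the cytosol and ZIP importers (Slc39) move it in. Of 10 exporter genes 6 were tested, and of 14 importer genes 9. In GM-CSF against control cDC1s, 1 of 6 exporters and 2 of 9 importers rose and 0 fell, with median log2 differences of 0.47 and 0.55, against 0.14 over all genes tested. These 3 calls stand beside 14.8% called over all genes tested, a share near their own. The exporter was *Slc30a5*, which encodes a transporter of the early secretory pathway, at 25.8 and 33.9 FPKM in GM-CSF cDC1s, against 13.9 and 10.7 FPKM in control cDC1s (log2 difference 1.21, SE 0.24, limma adjusted p = 0.00515). The importers were *Slc39a3*, with 7.37 and 8.83 FPKM in GM-CSF cDC1s and 4.61 and 2.39 FPKM in control cDC1s, and *Slc39a11*, with 26.4 and 30.6 FPKM in GM-CSF cDC1s and 18.0 and 8.46 FPKM in control cDC1s. None of these calls was made with quantile normalization or with the length trend removed.

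In control cDC1s against control cDC2s, 1 of 6 exporters and 3 of 9 importers fell and 0 rose, no larger a share than the 31.8% called over all genes tested. The medians were -0.42 and -0.64, against -0.26 over all genes tested, and *Slc30a7* (0.41) and *Slc39a1* (0.68), named after their values were seen, had positive log2 differences that did not pass in the fit reported. The largest drop was that of *Slc30a5*, at 13.9 and 10.7 FPKM in control cDC1s, against 30.4 and 39.0 FPKM in control cDC2s (log2 difference -1.42, SE 0.24, limma adjusted p = 0.000511). *Slc39a6* followed with 9.09 and 5.11 FPKM in control cDC1s, against 17.7 and 19.2 FPKM in control cDC2s. *Slc39a9* and *Slc39a11* made up the rest. With the length trend removed, 0 of the 15 transporters was called and the exporter median was 0.06. With quantile normalization the call of *Slc30a5* was the one left and the exporter median was 0.03. The median of all genes tested was then 0.03 and 0.02. With a pseudocount of 0.1, *Slc39a1* was called higher in control cDC1s (log2 difference 1.75, limma adjusted p = 0.0281). *Slc39a3* (-1.19) and *Slc39a14* (-1.65) were then newly called lower.

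In DC-Xs against GM-CSF cDC1s, *Slc39a10* was called beside *Slc30a1*. This importer of the plasma membrane stood at 8.49 and 14.7 FPKM in DC-Xs and at 1.72 and 3.77 FPKM in GM-CSF cDC1s (log2 difference 1.76, SE 0.46, limma adjusted p = 0.0145). The call was lost without GM-CSF cDC1s replicate 1 (1.36, adjusted p = 0.127) and without DC-Xs replicate 2 (1.40, adjusted p = 0.116). Its levels in P-IV, 13.7 and 14.2 FPKM, and in P-III, 12.4 and 12.5 FPKM, were within the range of the DC-X libraries. Of the 15 transporters tested, 0 were called, in the fit reported, which has no replicate block, in GM-CSF against control cDC2s, in the difference of the effects, in GM-CSF cDC1s against GM-CSF cDC2s, in DC-Xs against GM-CSF cDC2s and in P-III against P-I. With the block, *Slc39a10* was called in DC-Xs against GM-CSF cDC2s (log2 difference 1.25, adjusted p = 0.0472 with the block and 0.0750 without it). A pseudocount of 0.1 gave a call of *Slc39a6* in GM-CSF cDC1s against GM-CSF cDC2s (log2 difference -1.02, limma adjusted p = 0.0177).

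**Figure D4:**
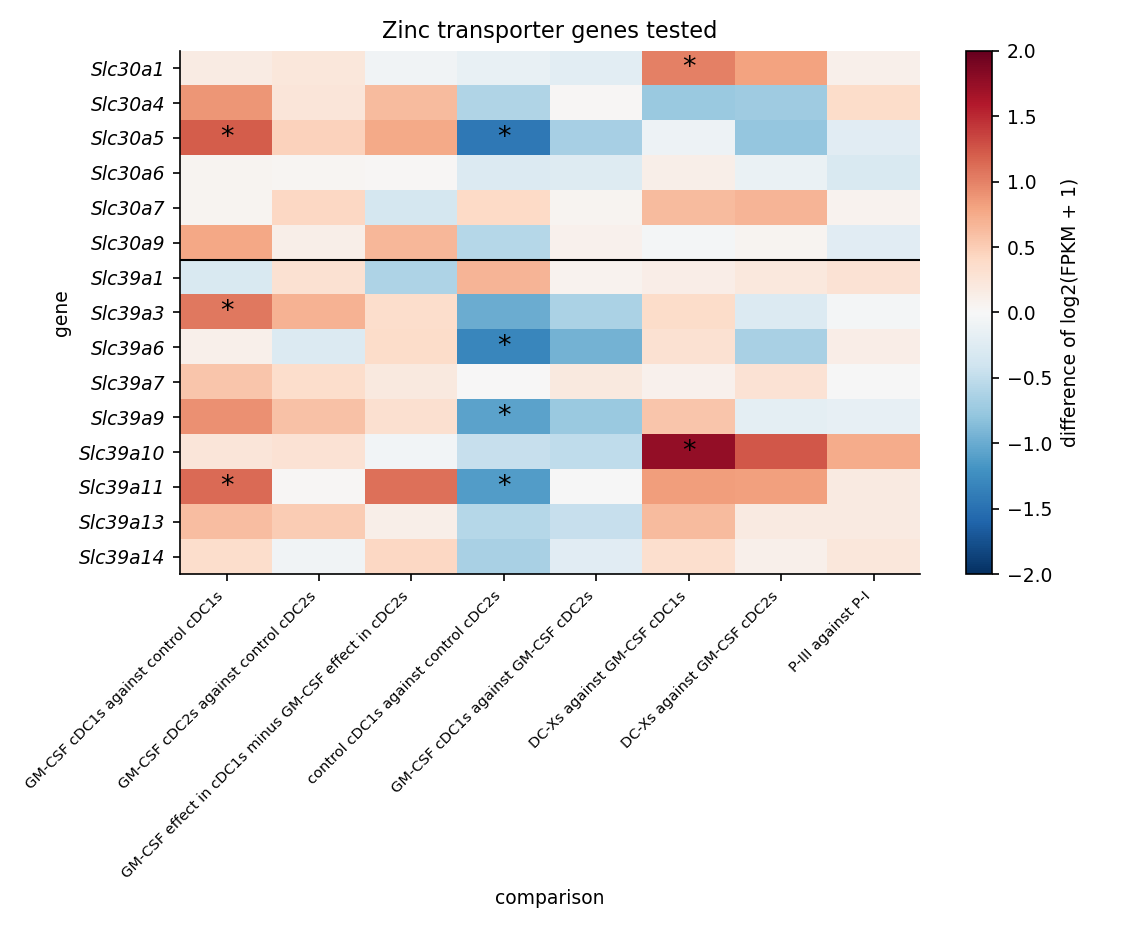
Difference of log2(FPKM + 1) for the 6 zinc exporters (above the line) and 9 zinc importers (below it) tested, in 8 comparisons, on a colour scale from -2 to 2 with red for higher in the first-named group. A star marks a call, of which there are 9, such as *Slc39a10* in DC-Xs against GM-CSF cDC1s at 1.76.

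Over the 16 libraries, *Mt1* and *Mt2* had a Pearson correlation of 0.70 (Spearman 0.66) on the log2(FPKM + 1) scale. That of *Mt1* was 0.54 with *Slc30a1* and -0.06 with *Mtf1*. These are descriptions over libraries that share groups, and the P-IV pair weighs on those of *Mt1*. The genes most like *Mt1* were *Cxcl2*, which encodes a neutrophil-attracting chemokine (Pearson 0.82, Spearman 0.83), *Mkl2*, *Cox6b2*, *Ica1l* and *Gm9920*, with Pearson correlations of 0.80 to 0.81 for the last 4. *Cxcl2* averaged 47.7 FPKM in P-IV, against 0.378 to 78.2 FPKM in the other libraries, so its highest library was not P-IV. *Mkl2* averaged 3.63 FPKM in P-IV, against 1.05 to 3.06 FPKM in the other libraries. Those most like *Mt2* were *Ramp3* (0.85), *Prkrir* (0.85), *Myc* (0.82), a transcription factor of cell growth, *Soga1* (0.82) and *Gfra2* (0.78). For *Mtf1* they were *Slc9a8* (0.95), a sodium-hydrogen exchanger, *Inpp5e* (0.92) and *9530082P21Rik* (0.92), and for *Slc30a1* they were *Fbxo30* (0.85), *Kyat1* (0.85) and *Gab3* (0.84). No gene was on more than 1 of these lists.

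In all 3 groups of the DC gate from treated mice, replicate 1 was above replicate 2 for both metallothioneins. For *Mt1* the log2 difference between them, replicate 1 minus replicate 2, was 0.73 in DC-Xs, 1.38 in cDC2s and 1.16 in cDC1s, and for *Mt2* it was 0.93, 1.47 and 0.63. A difference of at least 1.5-fold on that scale in all 3 groups was shared by 562 genes, or 4.96% of the genes tested. Of the 7 tested genes of a list known to be induced by glucocorticoids, 3 shared it. These were *Per1*, a clock gene, *Fkbp5*, a co-chaperone of the glucocorticoid receptor, and *Klf9*, a transcription factor, of which *Per1* and *Fkbp5* were named after their values were seen. *Per1* stood at 20.2 and 3.43 FPKM in DC-Xs, at 22.9 and 2.70 FPKM in GM-CSF cDC2s and at 11.8 and 1.82 FPKM in GM-CSF cDC1s. Of the 9 NRF2 targets tested, *Osgin1* shared it, and 0 of the 15 zinc transporters did, a count near the share over all genes. *Dusp1*, of the glucocorticoid list, was lower in replicate 1 in all 3 groups, with 1492 and 2341 FPKM in DC-Xs. *Tsc22d3*, of the same list, was lower in replicate 1 in DC-Xs (164 and 341 FPKM) and higher in both cDC groups. These 3 genes were also named after their values were seen.

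The control groups differed in this order. Replicate 1 was the lower one for *Mt1* in both, and for *Mt2* it was the higher one in control cDC2s (1.20 and 0.366 FPKM) and the lower one in control cDC1s (0.188 and 0.481 FPKM). *Per1* was higher in replicate 1, at 13.7 and 6.34 FPKM in control cDC2s and 3.75 and 1.09 FPKM in control cDC1s. In P-IV, *Per1* was 2.92 and 4.27 FPKM. The labels do not say what the replicates share across groups, and its part in these values was not tested.

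**Figure D5:**
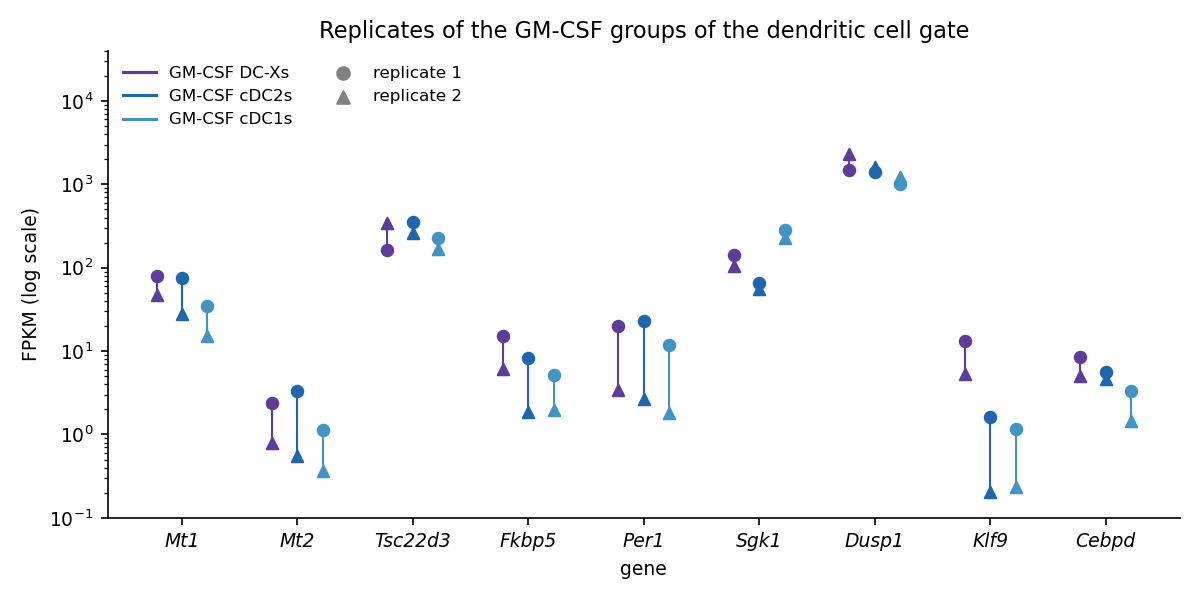
FPKM on a log scale for *Mt1*, *Mt2* and the 7 tested genes of the glucocorticoid-induced list in the DC-gate groups of treated mice, with circles for replicate 1 and triangles for replicate 2 of each group. Replicate 1 is the higher one for *Mt1*, *Mt2* and 5 of the 7 listed genes in all 3 groups, but not for *Dusp1* or for *Tsc22d3* in DC-Xs.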

How the data were processed

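RNA from the sorted cells of each sample was amplified with a low-input SMARTer kit and sequenced on a NovaSeq, per the study's methods. The authors aligned reads to mm10 with HISAT2 2.1.0, assembled transcripts with StringTie 1.3.4d and deposited 1 table of FPKM per gene, after base calling with bcl2fastq 1.8.4, as the submitters' processing notes list. FPKM is scaled to transcript length and to mapped fragments. Raw counts were not used here. Of the 24532 genes, 11335 with at least 1 FPKM in 2 libraries or more were tested with limma 3.58.1 (R 4.3.3, trended variance) on log2(deposited FPKM + 1), in 1 fit of all 16 libraries. P-values were adjusted by Benjamini-Hochberg over all genes tested, and intervals are 95% intervals. The study gives 2 mice for each population, while the labels do not tie a library to a mouse, so the p-values measure the spread between these libraries, which may be technical in part. The procedure was tested on simulated data.

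The members and lists (zinc exporters and importers, copper handling, glucocorticoid-induced genes, NRF2 targets) were chosen with earlier results of these data known. Named were the 4 members, list genes that were called, and the 5 (*Mt1*, *Mt2*) or 3 (*Mtf1*, *Slc30a1*) genes with the highest Pearson correlation to a member. Gene positions and promoters came from RefSeq tables (GRCm38). Transcript lengths and exon counts came from GENCODE transcripts matched to RefSeq accessions, with a length for 98.8% of the genes tested. Alternatives were a pseudocount of 0.1, no filter, quantile and median-of-ratios scaling, removal of each library's length trend, a replicate block, only the libraries compared, and leaving out each library.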

Additional observations from a re-analysis of the deposited data

How the results depend on the processing

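With 2 libraries a group the limits are wide, and the depth is unknown for 6 libraries. A pseudocount of 0.1 gave a call of *Mtf1* in GM-CSF against control cDC1s (1.02). Quantile normalization turned *Slc30a1* in GM-CSF against control cDC1s (-0.15) and in control cDC1s against control cDC2s (0.38), and put it below the limit in DC-Xs against GM-CSF cDC1s (0.99). Median-of-ratios scaling turned *Slc30a1* in control cDC1s against control cDC2s (0.0263) and *Mt2* in DC-Xs against GM-CSF cDC2s (0.0279).

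With the length trend removed, with or without the replicate block, *Slc30a1* was -0.29 in GM-CSF against control cDC1s and 0.50 in control cDC1s against control cDC2s, *Mt2* 0.47 and *Mtf1* -0.12 in the difference of the effects, *Mt1* -0.0334 in control cDC1s against control cDC2s and *Mt2* 0.32 in DC-Xs against GM-CSF cDC2s, all turned in sign. *Mt2* in control cDC1s against control cDC2s (-1.20) and *Mt1* in DC-Xs against GM-CSF cDC1s (1.89) became calls, and *Slc30a1* in the last comparison was lost (0.97). Calls over all genes were 849 (926 with the block) in GM-CSF against control cDC1s, against 1678 in the fit reported, and 273 (417 with the block) in the difference of the effects, against 775. The cause was not tested.

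With only the libraries compared in the fit, limma called 0 genes in GM-CSF against control cDC1s (2145 at an unadjusted p under 0.05), 0 in GM-CSF against control cDC2s (1482 at an unadjusted p under 0.05), 2 in the difference of the effects, 1531 in control cDC1s against control cDC2s and 1046 in GM-CSF cDC1s against GM-CSF cDC2s, and *Slc30a1* in DC-Xs against GM-CSF cDC1s was 1.01 (adjusted p = 0.0687). DC-Xs had 1502 calls against GM-CSF cDC1s and 1167 against GM-CSF cDC2s, where the fit reported had 1863 and 1670. P-III against P-I had 527 calls, more than the 398 of the fit reported. These fits have fewer samples.

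Leaving out 1 library gave 1004 to 2821 calls in GM-CSF against control cDC1s, 276 to 959 in GM-CSF against control cDC2s, 286 to 2419 in the difference of the effects and 130 to 259 in P-III against P-I. *Slc30a1* ranged from -0.20 to 0.67 in GM-CSF against control cDC2s, from -0.50 to 0.37 in the difference of the effects, from -0.58 to 0.29 in control cDC1s against control cDC2s, from -0.51 to 0.10 in GM-CSF cDC1s against GM-CSF cDC2s, from 0.92 to 1.10 in DC-Xs against GM-CSF cDC1s, from 0.50 to 1.11 in DC-Xs against GM-CSF cDC2s and from -0.0943 to 0.30 in P-III against P-I. *Mt2* ranged from -0.16 to 1.31 in GM-CSF against control cDC2s, from -0.95 to 0.53 in the difference of the effects, from -1.33 to 0.14 in GM-CSF cDC1s against GM-CSF cDC2s and from -0.81 to 0.67 in DC-Xs against GM-CSF cDC2s. *Mt1* ranged from 0.80 to 1.96 in DC-Xs against GM-CSF cDC1s and from -0.28 to 1.11 in DC-Xs against GM-CSF cDC2s, and *Mtf1* from -0.0344 to 0.17 in DC-Xs against GM-CSF cDC1s.

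The median over all genes tested was 0.14 in GM-CSF against control cDC1s and -0.26 in control cDC1s against control cDC2s, and -0.02 and 0.02 after quantile normalization. The share of higher calls, 70.2% and 35.1%, was then 54.5% and 51.5%. It was 62.1% in the difference of the effects and 50.5% with the length trend removed. After median-of-ratios scaling it was 39.1% in P-III against P-I, against 27.9%, and 56.9% in DC-Xs against GM-CSF cDC2s, against 46.0%. The groups share replicate numbers only. Over 28 pairs of groups, the deviations of same-numbered libraries correlated between -0.20 and 0.67. Among the 3 DC-gate groups of treated mice they correlated at 0.43 to 0.67. With these 3 groups, control cDC2s were at 0.18 to 0.40 and control cDC1s at -0.0143 to 0.27. The labels do not say what a number shares, and with 2 libraries a group the pairing was not settled. The replicate block alone changed no call of the 4 genes but added that of *Slc39a10* in DC-Xs against GM-CSF cDC2s (adjusted p = 0.0472), with *Slc30a1* in DC-Xs against GM-CSF cDC1s at an adjusted p of 0.0274.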

Other observations

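Metallothioneins also bind copper, so a list of copper-handling genes was read. *Slc31a2*, which encodes the copper transporter CTR2, stood at 51.0 and 61.0 FPKM in GM-CSF cDC1s, against 4.63 and 6.59 FPKM in GM-CSF cDC2s (log2 difference 3.12, SE 0.22, limma adjusted p = 5.54e-07). It was 55.1 and 54.3 FPKM in control cDC1s, against 7.58 and 7.05 FPKM in control cDC2s, and 41.6 and 60.5 FPKM in DC-Xs. The differences of GM-CSF cDC1s and DC-Xs from GM-CSF cDC2s and of control cDC1s from control cDC2s were called in 12 of 12 settings. P-IV had 60.2 and 62.2 FPKM, P-III 48.6 and 54.6 FPKM and P-I 37.5 and 30.5 FPKM. Of 7 copper genes tested, 4 rose in control cDC1s against control cDC2s, namely *Slc31a2*, *Sod1*, *Cox17* and *Atox1*, and 0 fell, beside 31.8% called over all genes tested. With the length trend removed 2 of them were called, and the shortest length class had a median of 0.59 in this comparison. In DC-Xs against GM-CSF cDC1s 3 fell and 0 rose, beside 16.4% called over all genes tested, and 1 was called with the length trend removed. This was *Sod1*, the copper-zinc superoxide dismutase, whose log2 difference in the fit reported, without that step, was -1.78 (SE 0.24, limma adjusted p = 0.00017).

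Of 9 NRF2 targets tested, *Srxn1*, which encodes the antioxidant enzyme sulfiredoxin, was called in DC-Xs against both cDC groups of treated mice, where 16.4% and 14.7% of all genes tested were called. It stood at 9.33 and 10.1 FPKM in DC-Xs, at 0.804 and 2.96 FPKM in GM-CSF cDC1s and at 0.512 and 0.222 FPKM in GM-CSF cDC2s, with log2 differences of 2.00 and 2.98. P-IV had 6.47 and 6.27 FPKM of *Srxn1*. Of 7 glucocorticoid-induced genes tested, 2 rose and 1 fell in DC-Xs against GM-CSF cDC1s, beside 16.4% called over all genes tested, with *Klf9* at 13.4 and 5.36 FPKM in DC-Xs and 1.16 and 0.237 FPKM in GM-CSF cDC1s (log2 difference 2.55, SE 0.49, limma adjusted p = 0.00219). In GM-CSF against control cDC1s, 1 of these 7 genes rose and 0 fell, beside 14.8% called over all genes tested. The gene was *Sgk1*, a kinase, with a log2 difference of 2.10 (SE 0.30, limma adjusted p = 0.00131). It was not called with only the libraries compared in the fit, where no gene was called.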
